A study of Mus musculus with 5 samples.

Results

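Isolated RNAPII-only peaks are sites where RNA polymerase II (RNAPII) was detected away from other RNAPII peaks and where neither of 2 subunits of the negative elongation factor (NELF) nor an R-loop signal was listed. They were selected on measured values, namely peak width, overlap and distance, as RNAPII peaks under 5000 bp wide that overlap no NELF-A, NELF-B or DRIP peak by 1 bp or more and have no second RNAPII peak within 10000 bp, edge to edge. Of 7718 RNAPII peaks, 425 met these conditions (5.51%, exact binomial 95% interval 5.01 to 6.04%). The number depended on the thresholds of the lists. Applied to the upper 50% of RNAPII peaks by score, the conditions gave 143 of 3867 (3.70%). These include peaks outside the 425, since isolation was then judged among the kept peaks alone. With the upper 50% of NELF and DRIP peaks the number was 1106 (14.3%). All lists came from primary mouse mammary epithelial cells, from virgin mice 6 to 8 weeks old and of mixed strain; the labels state neither genotype nor treatment. RNAPII, NELF-A and NELF-B were mapped by ChIP-seq, in which an antibody recovers the DNA bound to a protein. R-loops were mapped by DRIP-seq, in which an antibody recovers RNA-DNA hybrids. The series has 5 samples, and the peak lists of 4 were analysed; the DRIP sample treated with RNase H was not analysed here.

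RNAPII that has begun transcription often halts shortly downstream of the start site, and NELF helps to hold it there until the kinase P-TEFb releases it into elongation. NELF-B, also named COBRA1, binds the tumour suppressor BRCA1. R-loops form where nascent RNA pairs again with its DNA template behind the polymerase. An RNAPII peak without listed NELF is therefore a site where polymerase was recovered and the pausing factor was not listed.

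With 1 list per target there was no spread between replicates, so no p-value was computed, and intervals cover counting error over peaks alone. Sequencing depth is unknown from these files. The cells were a bulk preparation, so strong occupancy in few cells and weak occupancy in many cannot be told apart. Positions are in mm9. The gene table at hand is of GRCm38, so no gene names, gene starts or sequences are given, and the labelled cell type was not checked against marker genes.

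Lack of overlap with the other 3 lists was seen at 1735 of all RNAPII peaks (22.5%), and 1689 of these were under 5000 bp wide. Isolation was seen at 4523 of all RNAPII peaks (58.6%), and 4415 of these were under 5000 bp. RNAPII-only peaks were thus a minority of isolated short peaks, at 9.63% (8.77 to 10.5%). The 425 peaks were also a minority of short RNAPII-only peaks, at 25.2% (23.1 to 27.3%); the other 1264 lay within 10 kb of another RNAPII peak and are called clustered RNAPII-only peaks. In total the 425 peaks covered 397750 bp, or 2.97% of the length covered by RNAPII. Both conditions belong to the choice of the peaks, and these counts describe that choice.

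For comparison, 2 further sets of isolated RNAPII peaks under 5000 bp without DRIP were used. The NELF-A-only set held 1663 peaks that overlap NELF-A and not NELF-B. The dual-NELF set held 1645 peaks that overlap both subunits. Isolated short peaks with DRIP and no NELF numbered 32, too few to serve as a set.

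The isolated RNAPII-only peaks were mostly narrow, with a tail of wider ones. Their median width was 750 bp, like that of the NELF-A-only set, against 1000 bp in the dual-NELF set. At the smallest width in the RNAPII list, 500 bp, were 171 of 425 (40.2%, 35.5 to 45.1%), compared with 28.8% (26.6 to 31.0%) of the NELF-A-only set. The odds ratio was 1.66 (Woolf 95% interval 1.33 to 2.08). In the dual-NELF set 13.1% had this width, an odds ratio of 4.45 (3.50 to 5.67), and over all RNAPII peaks 20.8% had it. Among clustered RNAPII-only peaks the share was 37.9% (35.2 to 40.6%), an interval that overlaps that of the isolated ones. The wide end was also fuller than in the NELF-A-only set. Widths of 1750 bp and more were found at 56 RNAPII-only peaks (13.2%, 10.1 to 16.8%) and at 8.84% (7.52 to 10.3%) of the NELF-A-only set, an odds ratio of 1.57 (1.13 to 2.17). In the dual-NELF set 16.8% were that wide (odds ratio 0.753, 0.552 to 1.03), as were 19.3% of clustered RNAPII-only peaks and 26.7% of all RNAPII peaks.

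**Figure D1:**
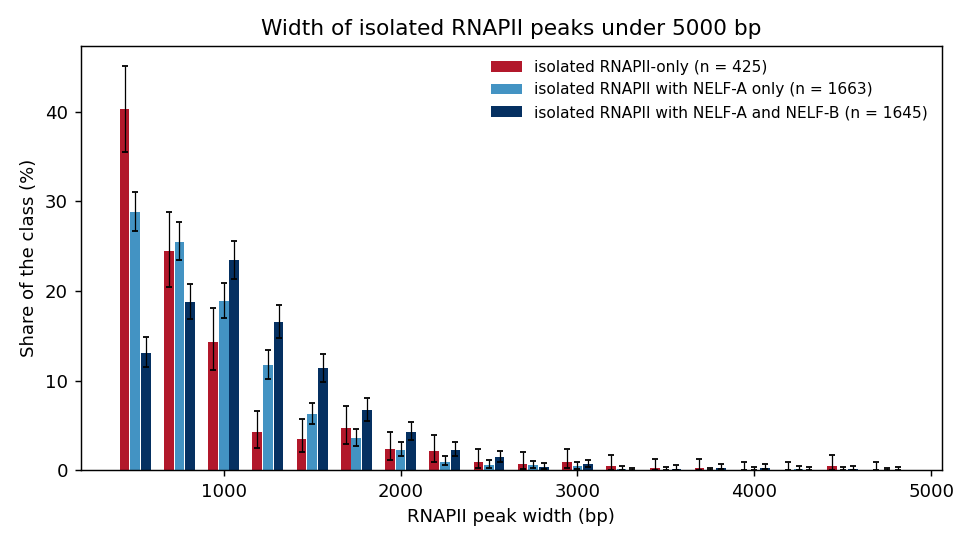
Share of each set (vertical axis, percent) at each RNAPII peak width (horizontal axis, bp); bars are isolated RNAPII-only peaks, the NELF-A-only set and the dual-NELF set, and error bars are exact binomial 95% intervals. RNAPII-only peaks lead at 500 bp with 40.2%, where the NELF-A-only set has 28.8% and the dual-NELF set 13.1%.

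Seen across widths, the share of isolated peaks that were RNAPII-only was highest among the narrowest peaks and lowest at middle widths. It was 19.1% (16.6 to 21.8%) at 500 bp, 11.7% (9.67 to 14.0%) at 750 bp, 7.21% (5.56 to 9.17%) at 1000 bp and 3.34% (2.31 to 4.66%) at 1250 to 1500 bp. At 1750 to 2250 bp it was 6.90% (4.95 to 9.32%), above the interval of the 1250 to 1500 bp class. At 2500 to 4750 bp it was 7.30% (4.31 to 11.4%), where 17 of 233 peaks were RNAPII-only.

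RNAPII signal at these peaks was close to the lowest level in the list. Each peak carries 1 whole number from the authors, called the score here; its unit is not stated, and it was compared within the RNAPII list alone. The score divided by width is given per 250 bp, the grid on which peaks start and end. The RNAPII-only peaks had scores of 104 to 1496 with a median of 166, and 22 of them had the lowest score of the list, 104. Peaks with that score tie at rank 7548 of 7718 in the RNAPII list. Per 250 bp the median of the RNAPII-only peaks was 55.5 (order-statistic interval 55 to 56), near the lowest value of any RNAPII peak, 51.8. The median was 59.0 (58.5 to 59.3) in the NELF-A-only set, 65.8 (64.8 to 66.8) in the dual-NELF set and 54.6 (54.5 to 55) in clustered RNAPII-only peaks. Of the RNAPII-only peaks, 197 (46.4%, 41.5 to 51.2%) had under 55.2 per 250 bp, as did the lowest 25% of all RNAPII peaks, and 15 (3.53%) had more than 75.6. Values under 55.2 were found in 26.2% of the NELF-A-only set, an odds ratio of 2.44 (1.96 to 3.04), which was 2.33 (1.84 to 2.95) between peaks of exactly equal width. In clustered RNAPII-only peaks the share was 56.3% (53.5 to 59.1%), above that of the isolated ones. Low signal was thus not particular to isolated RNAPII-only peaks.

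The median was lower than in the NELF-A-only set at each of the 8 widths from 500 to 2250 bp, and the intervals of the medians were apart at 500, 1000 and 1250 bp. At 500 bp the median score per 250 bp was 54.5 (54 to 55) in RNAPII-only peaks and 56.0 (55.5 to 56.5) in the NELF-A-only set. At 1000 bp the medians were 55.8 (54.3 to 57.0) and 60.5 (59.5 to 61.5), and at 1250 bp they were 56.3 (54.4 to 60.4) and 63.8 (61.8 to 65.8), in the same order of sets. The median of RNAPII-only peaks stayed between 54.5 and 57.3 up to 1500 bp, while that of the NELF-A-only set reached 68.3 there. In clustered RNAPII-only peaks the median was likewise flat, between 53.5 and 56.3 over these widths. The widths of 2000 and 2250 bp held just 10 and 9 RNAPII-only peaks. Averaged over equal widths, the ratio of medians was 0.946 (0.925 to 0.989) against the NELF-A-only set, 0.910 (0.891 to 0.950) against the dual-NELF set and 1.03 (1.01 to 1.09) against clustered RNAPII-only peaks.

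**Figure D2:**
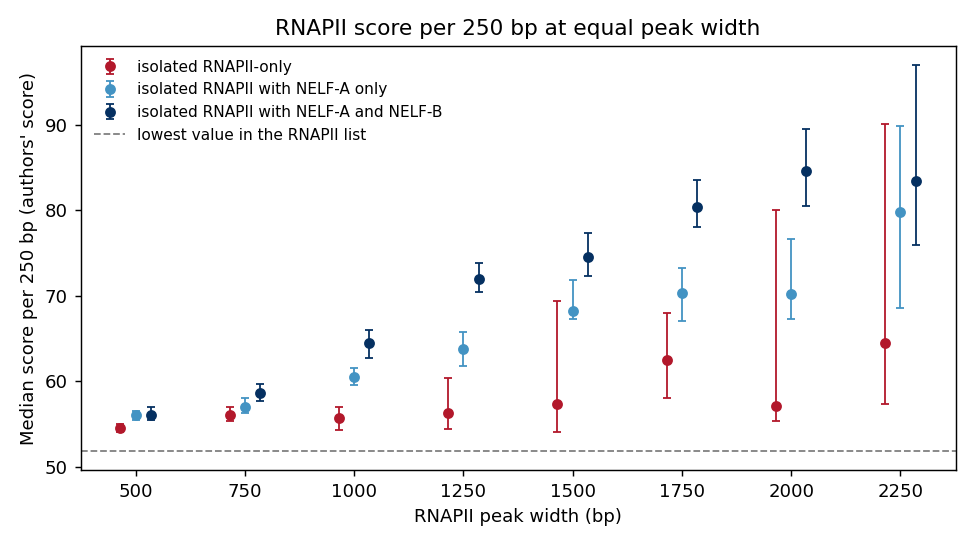
Median score per 250 bp (vertical axis, the authors' score) by RNAPII peak width (horizontal axis, bp) in isolated RNAPII-only peaks, the NELF-A-only set and the dual-NELF set; error bars are order-statistic 95% intervals and the dashed line is the lowest value of any RNAPII peak, 51.8. RNAPII-only peaks stay near that line up to 1500 bp, while both other sets are higher in wider peaks.

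Read the other way, the share of isolated short peaks that lacked NELF and DRIP was lower where RNAPII signal was higher. It was 21.8% (19.1 to 24.6%) under 55.2 per 250 bp, 11.8% (10.03 to 13.7%) up to 61.1, 5.28% (4.14 to 6.62%) up to 75.6 and 1.54% (0.866 to 2.53%) above, classes that each hold about 25% of the RNAPII list. The same was seen at fixed width. Among isolated peaks of 500 bp the share was 11.6% (8.71 to 15.1%) above the median score per 250 bp of that width and 25.8% (21.9 to 29.985%) at or below it. Among those of 1000 bp it was 2.14% (0.984 to 4.03%) above and 12.2% (9.25 to 15.7%) at or below. Distance to the threshold of the RNAPII list thus moved with the RNAPII-only share, and its part in the lack of NELF and DRIP was not tested.

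A few RNAPII-only peaks were strong. By score, 6 of the 425 ranked in the top 10% of all RNAPII peaks, and by score per 250 bp none was in the top 1%. The highest score, 1496, belonged to a 3500 bp peak at chr10:18780501-18784000. Its nearest RNAPII neighbour, 44500 bp away, was a 19000 bp domain that overlapped both NELF-A and DRIP. The second, with 1461, was a 4500 bp peak at chr2:4581751-4586250, and it shared the greatest width with the fifth, at chr16:18776501-18781000 with 1177. A NELF-A peak lay 8250 bp from the peak on chromosome 2, and another lay 31000 bp from the one on chromosome 16. The third, with 1362, was a 3250 bp peak at chr15:9456751-9460000 that stood alone: the nearest NELF-A peak was 386000 bp away, DRIP 780500 bp, NELF-B 937000 bp and RNAPII 955250 bp. The fourth, with 1236, lay at chr2:84350751-84354000, 84750 bp from both RNAPII and NELF-A and 23000 bp from DRIP. The third widest, of 3750 bp and with a score of 1036, lay at chr11:83522501-83526250.

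Per 250 bp the leader was a narrow peak of 750 bp at chr1:194571501-194572250, with a total score of 328 and 109 per 250 bp. It was followed by the leading peaks on chromosomes 10 and 15, with 107 and 105 per 250 bp. The fourth, at chr15:90507751-90510750, had 97.3 per 250 bp and no other RNAPII peak within 1178750 bp. The fifth, with 95.2, was at chr2:84634251-84636500, 280250 bp from the peak at chr2:84350751-84354000 that had 95.1. Of these 5, the peaks on chromosome 15 had no peak of any list within 100 kb.

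**Figure D3:**
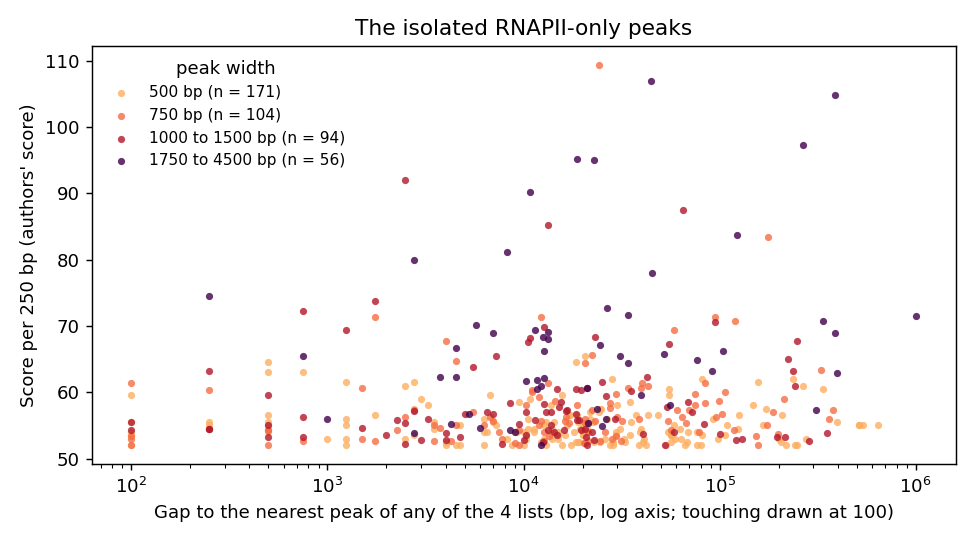
Each point is an isolated RNAPII-only peak: its score per 250 bp (vertical axis, the authors' score) against the gap in bp to the nearest peak of any of the 4 lists (horizontal log axis, touching peaks drawn at 100), coloured by peak width. The median is 55.5 per 250 bp, and the 56 peaks of 1750 to 4500 bp reach up to 107.

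Other RNAPII peaks lay closer to the RNAPII-only peaks than to isolated peaks with NELF, beyond the 10 kb that the choice of all 3 sets kept free. The median gap to the nearest RNAPII peak was 43250 bp (37500 to 57250), against 71000 bp (65750 to 77750) in the NELF-A-only set and 69750 bp (67000 to 74250) in the dual-NELF set. A gap of 20 kb or less was found at 107 RNAPII-only peaks (25.2%, 21.1 to 29.6%) and at 13.0% (11.5 to 14.8%) of the NELF-A-only set. Over all RNAPII peaks the share was 49.8%, but this includes the 41.4% within 10 kb of another, which the 3 sets leave out. Of the 4523 isolated RNAPII peaks, 652 had a gap of over 10 and up to 20 kb. The odds ratio against the NELF-A-only set was 2.24 (1.73 to 2.91), and 2.38 (1.82 to 3.12) at equal width. Over 1 Mb from any other RNAPII peak were 8 RNAPII-only peaks (1.88%, 0.816 to 3.68%), compared with 3.49% (2.66 to 4.49%) of the NELF-A-only set and 1.52% (0.986 to 2.24%) of the dual-NELF set. Over all RNAPII peaks, clustered ones included, it was 1.4%. The greatest distances thus did not set the RNAPII-only peaks apart from every set.

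The share of nearest RNAPII neighbours that carried NELF-A was lower than in the sets with NELF-A, but this contrast depended on neighbours that belong to the sets themselves. NELF-A overlapped the neighbour at 311 of 425 RNAPII-only peaks (73.2%, 68.7 to 77.3%), at 85.7% (84.0 to 87.4%) of the NELF-A-only set and at 88.3% (86.7 to 89.8%) of the dual-NELF set. Over all RNAPII peaks, clustered ones included, the share was 67.7%, below that of the RNAPII-only peaks. The odds ratio against the NELF-A-only set was 0.453 (0.351 to 0.585), and 0.482 (0.372 to 0.625) at equal class of distance to the neighbour. The odds ratio was farthest from 1 at short range. With a neighbour at 10 to 20 kb, NELF-A was on 56.1% (46.1 to 65.7%) of the neighbours of RNAPII-only peaks and on 82.9% (77.3 to 87.7%) of those of the NELF-A-only set, an odds ratio of 0.262 (0.156 to 0.442). At 20 to 50 kb the odds ratio was 0.392 (0.239 to 0.641), at 50 to 100 kb it was 0.625 (0.316 to 1.24) and over 100 kb it was 0.892 (0.539 to 1.48), the last 2 intervals including 1. The 425 peaks had 419 distinct neighbours.

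The choice of the sets enters these neighbour values. For 47 RNAPII-only peaks the neighbour was itself an isolated RNAPII-only peak, chosen for lacking NELF-A, and 17 of them lay in the class of 10 to 20 kb. Among the NELF-A-only set, 513 peaks had a neighbour from that same set, chosen for carrying NELF-A. Without peaks whose neighbour was an isolated RNAPII-only peak, 47 and 124 in the 2 sets, the shares with NELF-A were 82.3% for RNAPII-only peaks and 92.7% for the NELF-A-only set, an odds ratio of 0.368 (0.265 to 0.510). Without peaks whose neighbour was of their own set, 47 and 513, they were 82.3% and 79.4%, and the odds ratio was on the other side of 1, at 1.20 (0.892 to 1.63). At 10 to 20 kb that second way gave 66.7% and 76.4%, an odds ratio of 0.617 (0.348 to 1.09), and over 100 kb it gave 92.6% and 77.7%, an odds ratio of 3.60 (1.76 to 7.35). The difference in NELF-A at the neighbour is thus not separate from how the sets were chosen.

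**Figure D4:**
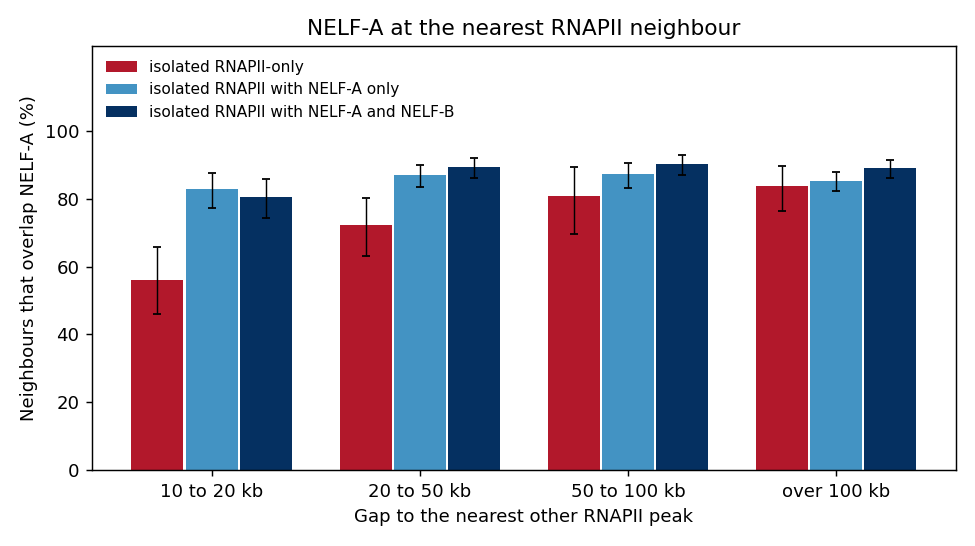
Share of nearest RNAPII neighbours that overlap NELF-A (vertical axis, percent) by gap to that neighbour (horizontal axis) for isolated RNAPII-only peaks, the NELF-A-only set and the dual-NELF set; error bars are exact binomial 95% intervals, and neighbours that belong to the sets themselves are included. At 10 to 20 kb the share is 56.1% for RNAPII-only peaks and 82.9% for the NELF-A-only set, and over 100 kb it is 83.7% and 85.2%.

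Other features of the neighbour were near their shares over all RNAPII peaks and differed from the NELF-A-only set, with neighbours from the sets themselves again included. NELF-B was on 37.6% of the neighbours of RNAPII-only peaks and on 45.3% of those of the NELF-A-only set (35.8% over all RNAPII peaks), an odds ratio of 0.730 (0.586 to 0.908). DRIP was on 24.9% and 19.1% in the same order of sets (23.9% over all RNAPII peaks), an odds ratio of 1.41 (1.09 to 1.81), and 1.36 (1.06 to 1.76) at equal distance class. Neighbours that again lacked NELF and DRIP made up 23.1% of those of RNAPII-only peaks and 12.1% of those of the NELF-A-only set (25.7% over all RNAPII peaks), an odds ratio of 2.17 (1.66 to 2.84). RNAPII domains of 5 kb or more were the neighbour of 29 RNAPII-only peaks (6.82%) and of 4.27% of the NELF-A-only set (6.19% over all RNAPII peaks). That odds ratio was 1.64 (1.05 to 2.56), and 1.49 (0.951 to 2.34) at equal distance class, where the interval includes 1.

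NELF-A peaks near the RNAPII-only peaks were few and had low scores. Within 10 kb lay a NELF-A peak at 51 of 425 (12.0%, 9.07 to 15.5%), where overlap had been removed by the choice of the peaks; over all RNAPII peaks the share within 10 kb or overlapping was 85.5%. In clustered RNAPII-only peaks, which also lack overlap, it was 55.8%, an odds ratio of 0.108 (0.0791 to 0.148), but those lie near other RNAPII peaks by definition. Of the 51 NELF-A peaks, 2 overlapped NELF-B and 0 overlapped RNAPII. Their median NELF-A score was 13 and the highest 44, against a median of 24 over the NELF-A list. Of the 51, 11 had the lowest score of that list, 9. The choice of the peaks keeps other RNAPII peaks over 10 kb away, and the NELF-A list includes peaks on RNAPII. The low scores are thus not separate from that choice. Touching without overlap were 9 NELF-A peaks, with scores of 9 to 20. Such touching was seen at 2.12% of the RNAPII-only peaks and at 1.42% of clustered RNAPII-only peaks. Over all RNAPII peaks, of which 72.3% overlap NELF-A, it was 0.466%. The strongest RNAPII-only peak among those 9 was at chr19:53269001-53270000 with a score of 222. A NELF-B peak within 10 kb was found at 3 RNAPII-only peaks (0.706%; 49.9% over all RNAPII peaks, overlap included), and the nearest lay 500 bp from chr14:8931751-8932500.

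DRIP signal lay within 10 kb of 91 of 425 RNAPII-only peaks (21.4%, 17.6 to 25.6%) and of 18.0% (16.2 to 19.9%) of the NELF-A-only set. Over all RNAPII peaks, overlap included, the share was 45.6%. The odds ratio between the 2 sets was 1.24 (0.955 to 1.62), and 1.27 (0.970 to 1.65) at equal width, both intervals including 1. Against the dual-NELF set, where the share was also 18.0%, it was 1.24 (0.954 to 1.62), but 1.48 (1.11 to 1.96) at equal width, an interval above 1. At equal class of distance to the nearest RNAPII peak it was 1.13 (0.858 to 1.48) against the NELF-A-only set and 1.11 (0.846 to 1.46) against the dual-NELF set, both intervals including 1. The odds ratio against the NELF-A-only set depended on the limits used. It was 1.89 (1.38 to 2.57) with NELF or DRIP within 1000 bp counted as shared. That setting takes peaks with DRIP that near out of both sets. With isolation of 20000 bp the odds ratio was 0.906 (0.650 to 1.26). A split by distance, made after the gaps had been seen, gave values on both sides of 1. Within 1 kb DRIP lay at 21 RNAPII-only peaks (4.94%, 3.08 to 7.45%) and at 8.66% (7.35 to 10.1%) of the NELF-A-only set, an odds ratio of 0.548 (0.342 to 0.878); over all RNAPII peaks it was 8.45%. Between 1 and 10 kb it lay at 70 (16.5%, 13.1 to 20.3%) and at 9.32% (7.97 to 10.8%), an odds ratio of 1.92 (1.41 to 2.60). Over all RNAPII peaks it was 15%. Of all RNAPII peaks, 22.2% overlap DRIP and fall in neither class, so their shares are not on the same basis. At equal class of distance to the nearest RNAPII peak the odds ratios were 0.508 (0.313 to 0.824) and 1.73 (1.26 to 2.37). Against the dual-NELF set at equal width they were 0.708 (0.431 to 1.17) and 2.05 (1.48 to 2.85), so the value within 1 kb did not stay apart from 1 in that comparison.

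The close-range difference included DRIP peaks that touch without overlap, which were found at 2 RNAPII-only peaks (0.471%, 0.0570 to 1.69%) and at 50 peaks of the NELF-A-only set (3.01%, 2.24 to 3.94%). Over all RNAPII peaks, including the 22.2% that overlap DRIP, the share was 2.51%. Touching peaks were thus 2 of the 21 RNAPII-only peaks with DRIP within 1 kb, and 50 of the 144 in the NELF-A-only set. The odds ratio within 1 kb was not computed without them. A difference within 1 kb apart from touching peaks is therefore not shown. The stronger of the 2 RNAPII-only peaks that touch DRIP lay at chr18:65183251-65184000 with an RNAPII score of 160. The 91 DRIP peaks within 10 kb had a median DRIP score of 42, against 58 over the DRIP list. Of the 91, 1 overlapped RNAPII, while the DRIP list includes peaks on RNAPII. This contrast in score is thus not separate from the choice of the peaks either. The scores of the 91 reached 883, so not all were low.

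**Figure D5:**
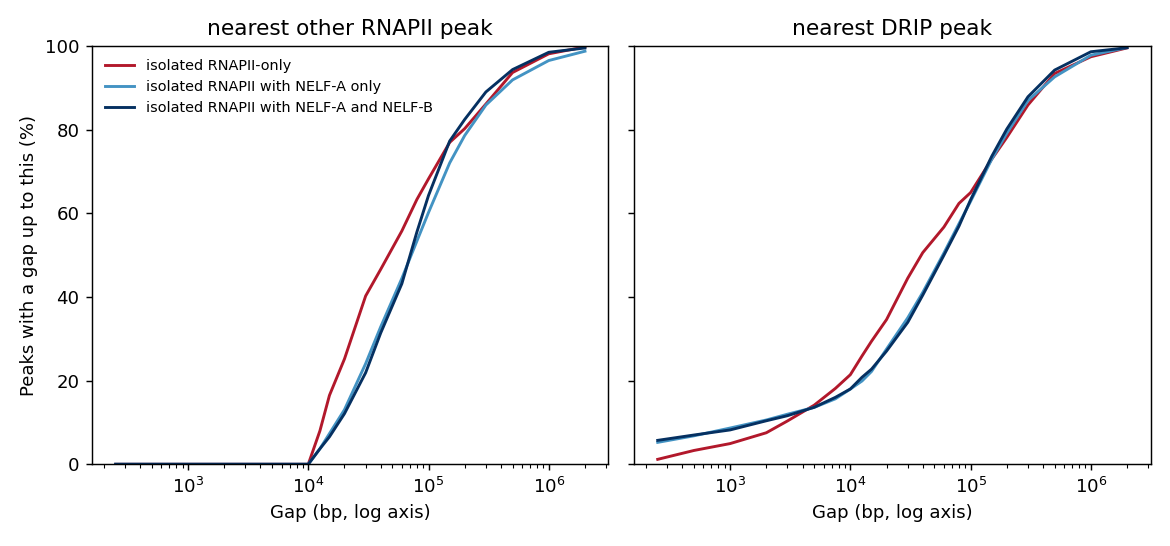
Share of peaks (vertical axis, percent) whose gap to the nearest other RNAPII peak (left panel) or the nearest DRIP peak (right panel) is at most the value on the horizontal log axis (bp), for isolated RNAPII-only peaks, the NELF-A-only set and the dual-NELF set. Within 20 kb 25.2% of RNAPII-only peaks have an RNAPII neighbour, against 13.0% of the NELF-A-only set; for DRIP the RNAPII-only curve is lowest at 1 kb (4.94%) and highest at 20 kb (34.6%).

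Some of the peaks were remote from all 4 targets. No other peak of any list lay within 100 kb of 57 RNAPII-only peaks (13.4%, 10.3 to 17.0%) and of 12.8% of the NELF-A-only set (odds ratio 1.05, 0.770 to 1.44), where the overlapping NELF-A peak was left aside. Over all RNAPII peaks, clustered ones included, the share was 6.78%. The 57 remote peaks had a median score per 250 bp of 56.5 (55 to 59), against 55.5 (55 to 56) in the other 368, and 40.4% of them were 500 bp wide, against 40.2%. The most remote, of 2250 bp with a score of 643, lay at chr4:66488251-66490500 with no peak of any list within 1007000 bp. The next 4 were all 500 bp wide with a score of 110, at chr15:32174001-32174500, chr1:50984251-50984750, chr18:59334501-59335000 and chr12:37834751-37835250. Their gaps to the nearest peak of any list were 641750, 537500, 515000 and 513000 bp.

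RNAPII-only peaks occurred on all 20 chromosomes of the list. Chromosome 9 had the most, 33, and the X chromosome the fewest, 9. Among isolated peaks under 5000 bp their share was lowest on chromosome 4, at 4.68% (2.51 to 7.86%), the 1 of 20 intervals that did not include the overall 9.63%. The X chromosome held 2.12% (0.973 to 3.98%) of the RNAPII-only peaks and 1.86% of the other RNAPII peaks (odds ratio 1.14, 0.576 to 2.25), with 1.88% over all RNAPII peaks. The 9 peaks on X were 500 to 1000 bp wide, scored 106 to 228, and lay at least 72250 bp from another RNAPII peak.

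At the smallest allowed gap, 10250 bp, were 6 RNAPII-only peaks, of which the strongest scored 678 at chr18:60550501-60553250, 378 at chr16:87483501-87485250 and 342 at chr9:15121751-15123250. At 10000 bp, just left out, were 4, of which the strongest scored 517 at chr10:128215751-128217750, 442 at chr6:86787501-86789250 and 160 at chr1:183129501-183130250. The width limit left out 2 isolated peaks without NELF or DRIP. One, of 5000 bp with a score of 1852 at chr11:83476001-83481000, was the nearest RNAPII neighbour, 41500 bp away, of the 3750 bp peak on chromosome 11. The other was 7000 bp wide at chr3:66023501-66030500 with a score of 4606, above that of every one of the 425.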

How the data were processed

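Alignment was with BWA against mm9, per the submitters' processing notes. Every deposited peak has a position and a whole-number score from the authors, with no unit stated. No caller, threshold or input is named in the labels or notes used here. RNAPII and DRIP are each titled as 2 libraries but came as 1 list. Per the labels, NELF libraries had 18 cycles of PCR from 0.2 ng of DNA, RNAPII libraries 15 cycles from 1 ng and DRIP libraries 15 cycles; the NELF antibodies were homemade.

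Gaps are counts of bases between edges, and a gap of exactly 10000 bp counts as within 10000 bp. Touching peaks were kept as deposited and are not overlaps. Shares carry exact Clopper-Pearson 95% intervals, medians order-statistic intervals, odds ratios Woolf intervals, and those at equal width or distance class are Mantel-Haenszel estimates (Python 3.11.15, scipy 1.17.1). Ratios of medians carry a range that is not a 95% interval. The code was tested on simulated data. Distance classes were 10 to 20, 20 to 50, 50 to 100 and over 100 kb. Regions named are the 5 highest by score and by score per 250 bp, the 3 widest, the 5 most remote, the nearest to each other list (ties by score) and those beside each limit. Members, comparisons and classes were chosen with earlier results of these data known. Alternatives changed the overlap, the isolation distance, the lists' thresholds, touching peaks, the neighbours counted, the X chromosome and the strongest peaks.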

Additional observations from a re-analysis of the deposited data

How the results depend on the processing

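Each of 15 results was recomputed under 11 other settings, of which counting touching NELF or DRIP as shared and placing a gap of exactly 10000 bp outside the limit were added after seeing the data. Leaving out peaks by what their neighbour is, for NELF-A at the neighbour alone, was also added then. No paired analysis was possible because each target has 1 list, and no replicate could be left out. The ratio of score per 250 bp stayed below 1 under those 11. So did the odds ratios for NELF-A at the neighbour (0.3064 to 0.7416) and for NELF-A within 10 kb against clustered peaks (0.02885 to 0.1894), with intervals that exclude 1. Clustered peaks lie within the isolation distance of another RNAPII peak by definition, and isolated ones do not. The odds ratio against clustered peaks is thus not separate from the choice of the sets under any setting. Leaving out peaks whose neighbour is RNAPII-only gave NELF-A at 82.28% of neighbours (odds ratio 0.3678), and leaving out those with a neighbour of their own set gave 82.28% and turned the odds ratio to 1.205 (0.8925 to 1.627), since it takes neighbours with NELF-A from the NELF-A-only set. Requiring overlap of 50% of the shorter peak, joining touching peaks, leaving out the top 1% by score per 250 bp or the X chromosome, or placing a gap of 10000 bp outside moved nothing beyond its interval; the X results have no value without X.

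Counting peaks within 1000 bp, or touching peaks, as shared takes peaks with DRIP that near out of both sets by definition. It also moves peaks with NELF-A that near, and without NELF-B, into the NELF-A-only set. As reported, the odds ratio for DRIP within 10 kb against the NELF-A-only set includes 1. It depended on the setting, and other causes of the changes were not tested. It was 1.887 (1.905 at equal width) with peaks within 1000 bp counted as shared, 1.484 (1.508) with touching counted as shared, 1.434 (1.452) at an isolation of 5000 bp, 1.692 (1.547) in the upper 50% of RNAPII by score, and on the other side of 1, 0.9056 (0.9219), at an isolation of 20000 bp.

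Counting peaks within 1000 bp as shared left 5.001% of RNAPII peaks, 8.29% of them with NELF-A within 10 kb. Isolation of 5000 bp gave 6.686% and 19.38%, and an odds ratio of 0.9427 for remote peaks. Isolation of 20000 bp gave 4.12% of RNAPII peaks, with DRIP within 10 kb at 15.72%, NELF-A at the neighbour at 78.93% and remote peaks at 17.92%. In the upper 50% of RNAPII by score, 143 peaks (3.698%) remained, with a median width of 1750 bp, a score ratio of 0.8819 (0.8234 to 1.01), NELF-A within 10 kb at 16.08%, DRIP at 31.47%, and 0.6993% on X (odds ratio 0.4229). With the upper 50% of NELF and DRIP peaks by score there were 1106 peaks (14.33%), the furthest of the 11 settings from 425. NELF-A then lay within 10 kb of 2.351%, DRIP of 10.76%, NELF-A at the neighbour of 63.38%, and 27.58% were remote. The odds ratios for remote peaks, 1.231 (1.036 to 1.463), and X, 1.932 (1.313 to 2.841), then excluded 1, which they included as reported.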

Other observations

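RNAPII-only peaks also occurred in neighbouring pairs. In 38 pairs, both peaks were RNAPII-only and no other RNAPII peak lay between them, and 18 of these pairs were within 50 kb. The closest pair lay on chromosome 17, at chr17:52288501-52290000 with a score of 409 and chr17:52300751-52303000 with a score of 811, 10750 bp apart. The next was on chromosome 6, at chr6:55286251-55287000 with 214 and chr6:55299251-55301000 with 364, 12250 bp apart. The pairs were not counted in the other sets. For 47 of the 425 peaks (11.1%, 8.24 to 14.4%) the nearest RNAPII peak was itself an isolated RNAPII-only peak. The share was 7.46% (6.24 to 8.83%) in the NELF-A-only set and 5.96% (4.86 to 7.21%) in the dual-NELF set. Over all RNAPII peaks it was 4.59%, where peaks with a neighbour within 10 kb cannot have such a neighbour. The named pairs were chosen after their values were seen.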
